A study of Mus musculus with 20 samples.

Results

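The 9 genes described here are Umod, Slc12a1, Kcnj1, Cldn16, Egf, Slc12a3, Pvalb, Trpm6 and Calb1, which are made in the thick ascending limb of the loop of Henle and in the distal tubule of the kidney. They were chosen by gene symbol from the kidney count table, where they are 9 of 55486 genes, and all 9 had enough counts to be tested. RNA was sequenced from kidney and from bone marrow of mice given 10 mg/kg oxaliplatin, a platinum chemotherapy drug, in 5% dextrose or 5% dextrose alone (vehicle) by intraperitoneal injection for 8 weeks. Each tissue and treatment had 5 mice, 1 library each, and 20 libraries in all. The mice were C57BL/6 and 10 weeks old at the start. The methods mention male and female animals and the labels give no sex. In the 10 kidney libraries 4 Y-linked genes together had 2031 to 3332 counts, and Xist had 0 to 19, the pattern of male tissue. The kidney values therefore cannot speak for female mice. Tissue collection is described for marrow only, where it took place 6 days after the last dose.

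The thick ascending limb takes up sodium, potassium and chloride from the urine through the cotransporter NKCC2 and passes no water, which dilutes the urine. The potassium channel ROMK returns potassium to the lumen, and the voltage that results drives calcium and magnesium between the cells. The distal convoluted tubule takes up sodium and chloride through the cotransporter NCC and fine-tunes magnesium and calcium. Drugs that block NKCC2 or NCC are the loop and thiazide diuretics, and loss of several of these genes causes inherited salt or magnesium wasting.

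Total counts per kidney library ranged from 24393007 to 28304953 with vehicle and from 26314983 to 30925430 with oxaliplatin. Levels are in CPM, read counts over the library size after TMM scaling, which sets libraries to a common level over most genes. Oxaliplatin was compared with vehicle by the quasi-likelihood test of edgeR (two-sided), and p-values were adjusted by the Benjamini-Hochberg method for the 19293 kidney genes tested. Genes were called where the change was beyond 1.5-fold and its adjusted p below 0.05. By this rule 2216 genes, 11.5% of those tested, were called, 1481 higher and 735 lower, and at an adjusted p under 0.05 with no fold limit the share was 29.4%. The first principal component, with 44.1% of the variance, placed the vehicle mice at -46.4 to -21.8 and the oxaliplatin mice at 19.6 to 60.2. Scaling mattered in these kidneys. With library size alone in place of TMM, the median log2 fold change of all genes moved from 0.02 to 0.16 and the called genes became 2245 higher and 470 lower.

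None of the 9 genes was called in kidney by edgeR or by DESeq2, where the background in edgeR was 11.5%. At an unadjusted p under 0.05, 5 of the 9 passed in edgeR, against 40.7% of all tested genes. At an adjusted p under 0.05 alone, 2 of the 9 passed (22.2%), against 29.4% of all tested genes in either direction. They were Slc12a1 and Cldn16, both higher after oxaliplatin, and 14.4% of all tested genes were higher at this level. The same 2 genes had every oxaliplatin mouse above every vehicle mouse, which held for 9.69% of all tested genes. The fitted log2 fold changes of the 9 genes ran from -0.54 to 0.43 with a median of 0.19, beside 0.02 for all tested genes. They were above 0 for 8 of the 9, with Pvalb below 0. Umod, Slc12a1, Egf and Trpm6 overlap genes on the opposite strand, and since the strand used in counting is not given in the sources used here, reads of such pairs cannot be told apart. In whole kidney, fewer cells of a type and less RNA per cell cannot be told apart.

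The sequences around the start sites of 3 of the genes are shown because 2 of them, Slc12a1 and Cldn16, passed the kidney test and Slc12a3 changed in bone marrow. Each runs 5′ to 3′ from 250 bases before to 50 bases after the RefSeq start on build GRCm38.p6. The 4 motifs searched on both strands were GTTAAT, a half-site of the kidney factor HNF1, TCAAGGTCA, bound by estrogen-related receptors, AGATAA, bound by GATA factors, and TATAAA, the TATA box. None of them overlaps another in these windows, and matches are in capitals.
Slc12a1, chr2:125152350-125152649, plus strand: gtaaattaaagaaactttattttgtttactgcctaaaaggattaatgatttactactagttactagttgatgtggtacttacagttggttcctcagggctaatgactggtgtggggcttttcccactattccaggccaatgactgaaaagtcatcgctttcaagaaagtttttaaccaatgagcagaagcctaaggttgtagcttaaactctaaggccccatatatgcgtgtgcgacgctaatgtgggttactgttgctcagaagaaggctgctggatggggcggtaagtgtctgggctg
Cldn16, chr16:26462885-26463184, plus strand: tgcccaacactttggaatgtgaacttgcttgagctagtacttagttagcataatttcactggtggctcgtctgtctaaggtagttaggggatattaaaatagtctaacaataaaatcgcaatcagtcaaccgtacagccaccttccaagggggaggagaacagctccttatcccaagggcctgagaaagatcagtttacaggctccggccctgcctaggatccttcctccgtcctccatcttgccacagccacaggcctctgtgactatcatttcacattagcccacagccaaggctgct
Slc12a3, chr8:94328958-94329257, plus strand: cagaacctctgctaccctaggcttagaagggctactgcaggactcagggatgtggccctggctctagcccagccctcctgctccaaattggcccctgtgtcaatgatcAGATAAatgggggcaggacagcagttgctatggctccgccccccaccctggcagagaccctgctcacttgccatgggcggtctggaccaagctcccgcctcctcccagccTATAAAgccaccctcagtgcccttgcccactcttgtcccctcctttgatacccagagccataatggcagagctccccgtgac
The Slc12a3 window held AGATAA, present in 11.2% of 32544 mouse promoter windows of this length, and TATAAA, present in 13.6%. The windows of Slc12a1 and Cldn16 held none of the 4. Windows were at hand for 8 of the 9 genes. Among the others only that of Umod had a match, to GTTAAT, which 7.13% of all windows hold, and TCAAGGTCA was in 0.412% of all windows and in none of these. A match in letters is a description and does not show that a factor binds.

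Slc12a1 (ENSMUSG00000027202, chromosome 2 from 125152505 to 125230002) encodes NKCC2, the target of loop diuretics. It was measured at 965, 1001, 986, 1105 and 1047 CPM in the 5 vehicle mice and at 1216, 1379, 1253, 1246 and 1266 CPM in the 5 oxaliplatin mice. The lowest oxaliplatin mouse lay above the highest vehicle mouse. The group means were 1021 ± 56.1 and 1272 ± 62.8 CPM (SD, n = 5), a log2 fold change (oxaliplatin over vehicle) of 0.32 (standard error 0.07, edgeR adjusted p = 0.0024). The 95% interval of the fold ran from 1.13 to 1.38, so the whole interval lay below 1.5-fold. Leaving out any 1 mouse gave values from 0.28 to 0.35.

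Cldn16 (ENSMUSG00000038148, chromosome 16 from 26463135 to 26482765) encodes claudin-16, a tight junction protein of the thick ascending limb through which calcium and magnesium pass between cells. The vehicle mice had 7.47, 6.63, 8.16, 7.12 and 7.09 CPM and the oxaliplatin mice 10.1, 11.2, 9.56, 9.37 and 8.73 CPM. No oxaliplatin mouse overlapped the vehicle mice, although the distance between the nearest mice was small. The means were 7.29 ± 0.570 and 9.80 ± 0.942 CPM (SD, n = 5), a log2 difference of 0.43 (standard error 0.11, edgeR adjusted p = 0.0070), and the 95% interval of the fold ran from 1.15 to 1.57. It rested on 174 to 200 counts per vehicle library and 266 to 334 per oxaliplatin library, the fewest of the thick ascending limb genes. Leaving out 1 mouse at a time kept the log2 fold change between 0.37 and 0.48.

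Umod (ENSMUSG00000030963, chromosome 7 from 119462711 to 119479282) encodes uromodulin, the most abundant protein of normal urine, made by the thick ascending limb. It was measured at 1875, 1795, 2278, 2330 and 2416 CPM with vehicle and 2529, 2450, 2537, 2374 and 2380 CPM with oxaliplatin. The vehicle mice fell into a lower pair and a higher 3, and of these only vehicle mouse 5 reached into the oxaliplatin range. The means, 2139 ± 283.0 and 2454 ± 78.1 CPM (SD, n = 5), differed by 0.20 on the log2 scale (standard error 0.09, edgeR adjusted p = 0.10, 95% interval of the fold 1.01 to 1.30).

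Kcnj1 (ENSMUSG00000041248, chromosome 9 from 32372493 to 32399197) encodes ROMK, the channel that returns potassium to the urine. Its values were 134, 133, 163, 162 and 154 CPM with vehicle and 156, 156, 148, 163 and 143 CPM with oxaliplatin. All 5 oxaliplatin mice lay within or close to the range of the vehicle mice. The log2 difference was 0.04 (standard error 0.07, edgeR adjusted p = 0.72), with a 95% interval of the fold from 0.924 to 1.14. It turned to -0.00144 without vehicle mouse 2.

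Egf (ENSMUSG00000028017, chromosome 3 from 129677565 to 129755316) encodes epidermal growth factor, which tubule cells release and which stimulates magnesium uptake in the distal convoluted tubule. The vehicle mice had 1501, 1492, 1665, 1774 and 1740 CPM and the oxaliplatin mice 1727, 1903, 1765, 1830 and 1832 CPM. Vehicle mice 4 and 5 lay above the lowest oxaliplatin mouse, so the groups overlapped. The means were 1634 ± 131.8 and 1811 ± 67.6 CPM (SD, n = 5), with a log2 difference of 0.15 (standard error 0.07, edgeR adjusted p = 0.14, 95% interval of the fold 0.995 to 1.23).

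Slc12a3 (ENSMUSG00000031766, chromosome 8 from 94329201 to 94366214) encodes NCC, the target of thiazide diuretics and the defining transporter of the distal convoluted tubule. It was measured at 1378, 1419, 1439, 1497 and 1177 CPM with vehicle and at 1502, 1794, 1540, 1574 and 1475 CPM with oxaliplatin. The groups overlapped by a single pair of mice, vehicle mouse 4 and oxaliplatin mouse 5. The means were 1382 ± 122.2 and 1577 ± 127.0 CPM (SD, n = 5), a log2 difference of 0.19 (standard error 0.08, edgeR adjusted p = 0.089, 95% interval of the fold 1.01 to 1.29).

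Pvalb (ENSMUSG00000005716, chromosome 15 from 78191114 to 78206400) encodes parvalbumin, a calcium-binding protein of the early distal convoluted tubule and of fast muscle fibers. The vehicle mice had 10.1, 13.3, 16.2, 15.4 and 13.4 CPM and the oxaliplatin mice 7.11, 14.4, 10.5, 9.26 and 5.91 CPM. In 3 of the oxaliplatin mice the level was below every vehicle mouse, and oxaliplatin mouse 2 was well inside the vehicle range. The means were 13.7 ± 2.33 and 9.44 ± 3.32 CPM (SD, n = 5) and the log2 difference was -0.54 (standard error 0.21, edgeR adjusted p = 0.079, 95% interval of the fold 0.499 to 0.952). Pvalb was called lower without oxaliplatin mouse 2 (-0.75, edgeR adjusted p = 0.0037) and without vehicle mouse 1 (-0.63, adjusted p = 0.049), and over all mice left out in turn it ranged from -0.75 to -0.40. The summed level of 6 skeletal muscle genes in the kidney libraries was 1.04 to 2.82 CPM with vehicle and 2.29 to 3.92 CPM with oxaliplatin.

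Trpm6 (ENSMUSG00000024727, chromosome 19 from 18749983 to 18892511) encodes the channel through which magnesium enters distal convoluted tubule cells. It had 23.3, 30.5, 33.1, 37.0 and 29.4 CPM with vehicle and 28.8, 38.4, 29.6, 37.5 and 38.2 CPM with oxaliplatin, and the groups overlapped over most of their range. The log2 difference was 0.17 (standard error 0.12, edgeR adjusted p = 0.29, 95% interval of the fold 0.947 to 1.34).

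Calb1 (ENSMUSG00000028222, chromosome 4 from 15881264 to 15908064) encodes calbindin-D28k, which carries calcium through the cells of the late distal convoluted and connecting tubule. Its values were 178, 198, 291, 209 and 191 CPM with vehicle and 172, 308, 253, 291 and 211 CPM with oxaliplatin, the widest relative spread between mice among the genes with over 100 CPM. The log2 difference was 0.21 (standard error 0.18, edgeR adjusted p = 0.41), and the 95% interval of the fold, 0.880 to 1.53, included both no change and a change of 1.5-fold.

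**Figure D1:**
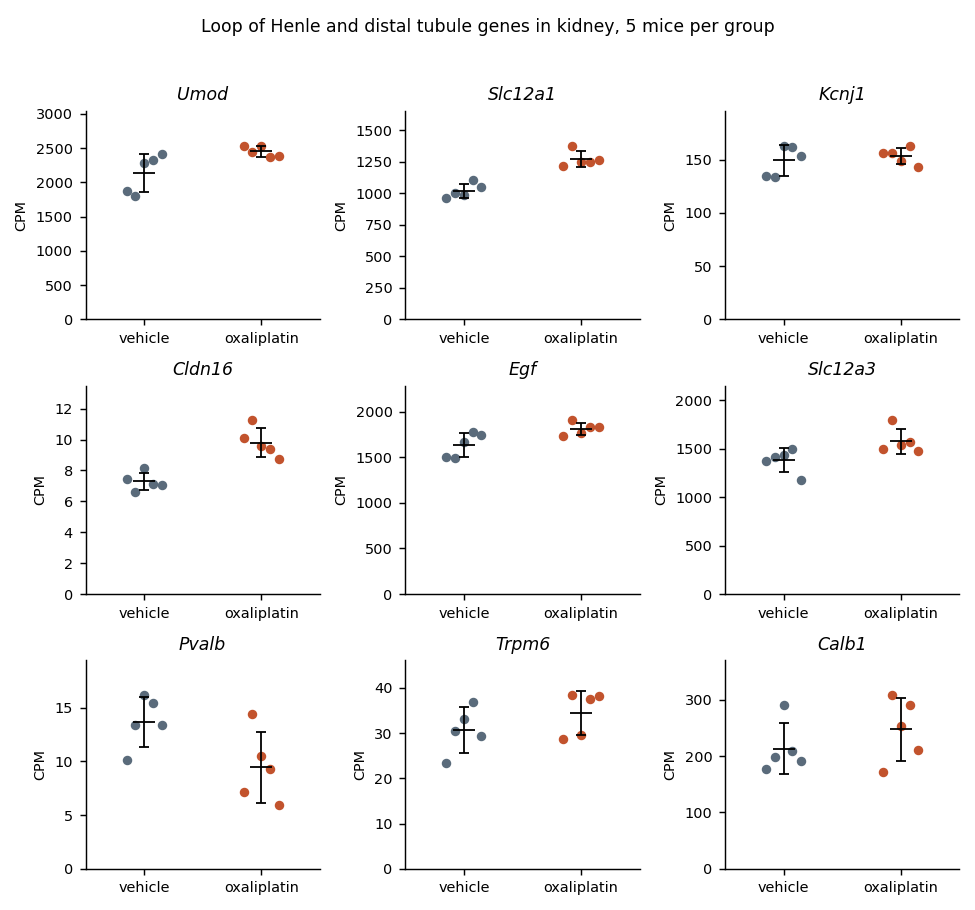
Level of each gene in kidney in CPM after TMM scaling (vertical axes, each from 0). Points are single mice, 5 with vehicle (grey) and 5 with oxaliplatin (orange), and bars give the mean and SD. Slc12a1 and Cldn16 are the genes in which the groups do not overlap, and Pvalb is the one with a lower mean after oxaliplatin (9.44 against 13.7 CPM).

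The choice of scaling changed how many of these genes passed. With library size alone, 5 of the 9 had an adjusted p under 0.05, against 32.2% of all genes tested that way. Umod (0.33, edgeR adjusted p = 0.0037), Egf (0.28, adjusted p = 0.0043) and Slc12a3 (0.32, adjusted p = 0.0059) joined Slc12a1 and Cldn16, all higher after oxaliplatin. The median over all genes rose with it, and relative to that median the genes hardly moved. Slc12a1 stood 0.29 above the median of all genes under both scalings, Cldn16 stood 0.40 above it under both, and Kcnj1 stood 0.01 above it with TMM and 0.02 with library size. Of the raw counts, the 9 genes together made up 0.575% to 0.691% of each vehicle library and 0.764% to 0.816% of each oxaliplatin library. The summed level after TMM scaling was 6072 to 7136 CPM with vehicle and 7348 to 8054 CPM with oxaliplatin. Both sums are mostly Umod, Egf, Slc12a3 and Slc12a1, with vehicle means of 2139, 1634, 1382 and 1021 CPM. Of these only Slc12a1 passed after TMM scaling. Pvalb, the gene with a lower mean, had 13.7 CPM with vehicle and hardly counts in them.

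**Figure D2:**
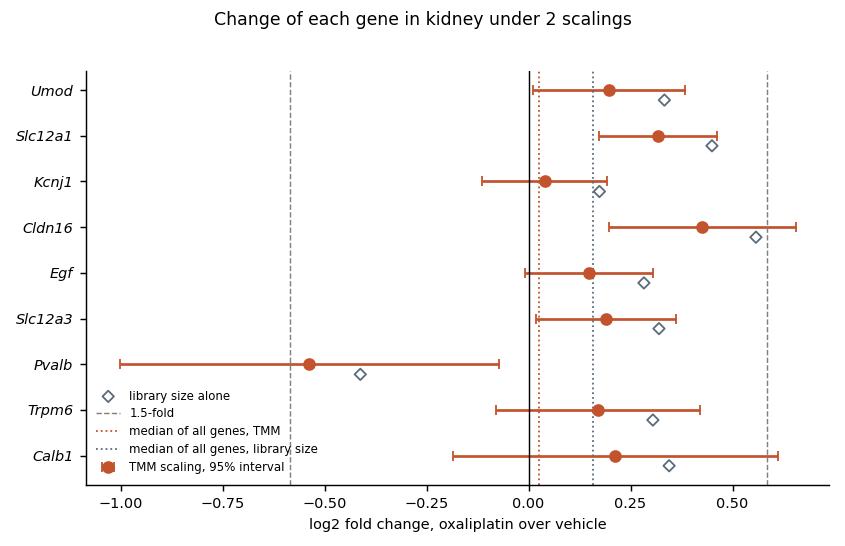
Log2 fold change of oxaliplatin over vehicle (horizontal axis) for each gene in kidney, 5 mice per group. Orange points and bars are the edgeR estimate after TMM scaling with its 95% interval, open diamonds the estimate with library size alone, dotted lines the median of all genes under each scaling (0.02 and 0.16), and dashed lines a change of 1.5-fold. Every diamond lies to the right of its point by about as much as the medians are apart.

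Ratios between genes of the same kidney cancel the scaling of the library. In 8 ratios chosen by segment and role, differences of log2 CPM were compared by an exact two-sided permutation test over all divisions of the 10 mice into 5 and 5. The smallest p this test can give is 0.00794, and p-values were adjusted over the 8 ratios. Among thick ascending limb genes, Kcnj1 relative to Slc12a1 was -2.78 ± 0.116 with vehicle and -3.05 ± 0.101 with oxaliplatin (log2, SD, n = 5). This difference of -0.27 separated the groups completely (exact permutation p = 0.00794, adjusted p = 0.032). Egf relative to Slc12a1 likewise went from 0.68 ± 0.0728 to 0.51 ± 0.0350, a difference of -0.17 with no overlap (exact permutation p = 0.00794, adjusted p = 0.032). Both genes thus stood lower beside Slc12a1 after oxaliplatin, while neither passed on its own level. Slc12a1 itself rose (log2 fold change 0.32), and the levels of Kcnj1 (0.04) and Egf (0.15) did not fall. The ratios are of whole-kidney RNA, and Egf is also made in the distal tubule. They cannot be read as changes within 1 segment. For Umod the difference relative to Slc12a1 was -0.11 (exact permutation adjusted p = 0.34) and for Cldn16 it was 0.10 (adjusted p = 0.34).

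Among distal convoluted tubule genes, Pvalb relative to Slc12a3 fell from -6.66 ± 0.255 to -7.44 ± 0.398 (log2, SD, n = 5). The difference was -0.78, a ratio of 0.584 (exact permutation p = 0.016, adjusted p = 0.042), with vehicle mouse 1 inside the oxaliplatin range. Trpm6 and Calb1 relative to Slc12a3 differed by -0.02 and 0.01 between the groups (exact permutation adjusted p = 0.92 for both). Slc12a3 relative to Slc12a1 compares the 2 segments by their defining cotransporters. It was 0.43 ± 0.153 with vehicle and 0.31 ± 0.0585 with oxaliplatin, a difference of -0.13 (exact permutation p = 0.13, adjusted p = 0.27). With single mice left out, which leaves fewer divisions, the differences stayed between -0.31 and -0.23 for Kcnj1, between -0.19 and -0.15 for Egf and between -0.90 and -0.65 for Pvalb. The adjusted p for Kcnj1 and for Egf rose to 0.064 without vehicle mouse 3 or any oxaliplatin mouse other than mouse 2, and that for Pvalb rose to at most 0.085 without any mouse other than vehicle mouse 1 and oxaliplatin mouse 2.

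**Figure D3:**
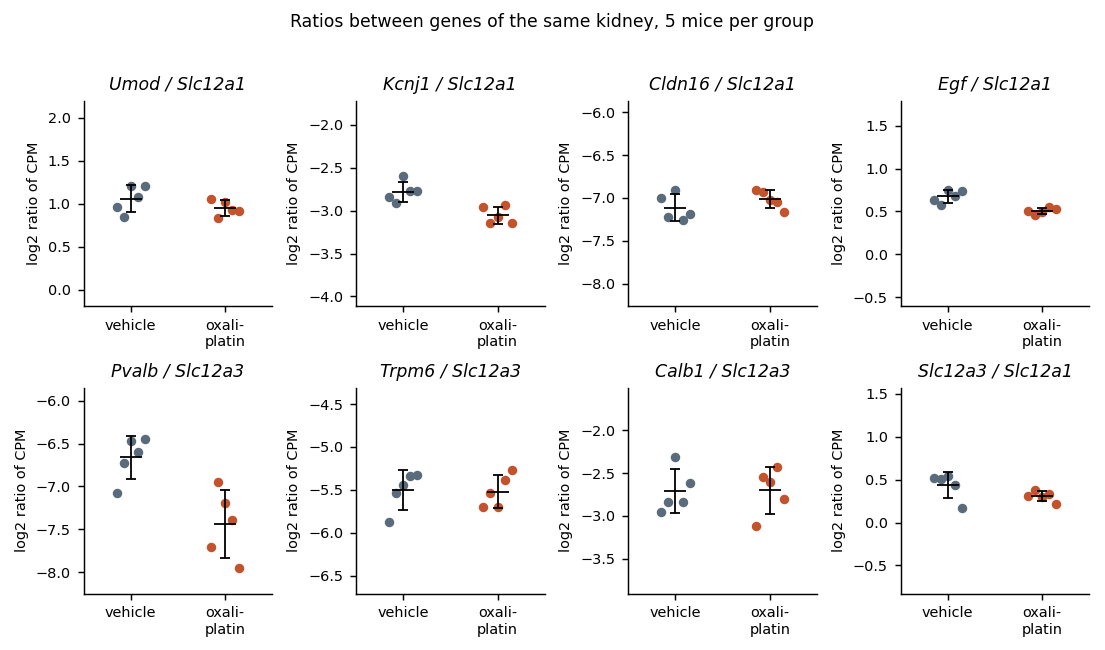
Log2 ratio of the CPM of gene pairs within each kidney (vertical axes, the same span in each panel), 5 mice per group. Points are single mice with vehicle (grey) and oxaliplatin (orange), and bars give the mean and SD. Kcnj1 and Egf relative to Slc12a1 show no overlap between groups, Pvalb relative to Slc12a3 is lower by 0.78 with slight overlap, and Trpm6 and Calb1 relative to Slc12a3 coincide.

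Levels between genes were compared as CPM per kilobase of the principal transcript. With vehicle, Umod came first at 815 ± 108 CPM per kilobase (SD, n = 5), followed by Slc12a3 at 419 ± 37.0, Egf at 343 ± 27.7 and Slc12a1 at 220 ± 12.1. Calb1 at 50.6 ± 10.6 and Kcnj1 at 49.9 ± 4.87 came next, then Pvalb at 14.0 ± 2.39, Cldn16 at 6.22 ± 0.486 and Trpm6 at 4.71 ± 0.774 CPM per kilobase. Of the neighbors in this order, the mice overlapped between Slc12a3 and Egf, between Calb1 and Kcnj1 and between Cldn16 and Trpm6. The order was the same with oxaliplatin, where Umod was at 935 ± 29.8 and Trpm6 at 5.30 ± 0.747 CPM per kilobase, and there the neighbors Calb1 and Kcnj1 and the neighbors Pvalb and Cldn16 overlapped. The order of the upper genes depends on the transcript chosen. Over all annotated exons Slc12a3 is 11119 bases long rather than 3299, and Slc12a1 and Egf then ranked above Slc12a3 with vehicle.

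Within groups, mice with more RNA of 1 of these genes tended to have more of the others, but no pair passed after adjustment over the 36 pairs (3 had an unadjusted exact permutation p under 0.05 for r and 4 for rho). With each group's mean subtracted, 34 of 36 pairs had a positive Pearson correlation over the 10 kidneys, with a median r of 0.46 (Spearman 0.41). The strongest was Umod with Egf (r = 0.80, rho = 0.77, exact permutation p = 0.091 and 0.078 over all shuffles within groups, adjusted p = 0.27 and 0.38), and r fell to 0.47 without the 2 mice farthest from the median. Calb1 and Pvalb, both calcium-binding proteins, had r = 0.78 and rho = 0.89 (exact permutation p = 0.019 and 0.0033, adjusted p = 0.27 and 0.12), and r was 0.79 without the farthest 2. Umod with Slc12a3 had the lowest, r = -0.22 (rho = -0.12, exact permutation p = 0.75 and 0.82, adjusted p = 0.79 and 0.82). All genes of a mouse share its library and its piece of kidney.

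The 5 other genes whose levels followed the 9 most closely, by the median r over the 9 within groups among 13626 genes in 10 kidneys, were Defb1 (0.72), Gm5278 (0.71), Cyb5rl (0.71), Slco4a1 (0.70) and Mettl2 (0.70). These r are the highest of the search and are given without a test. Defb1, a beta-defensin of the tubule, had 60.4 CPM with vehicle and 57.3 CPM with oxaliplatin (edgeR adjusted p = 0.64). Of the 5, only Cyb5rl had an adjusted p under 0.05 (log2 fold change -0.28, adjusted p = 0.031).

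Lists of other genes of the same segments and pathways held 55 genes, of which 53 could be tested. At the rule with the 1.5-fold limit 3 were called (5.66%, against 11.5% of all genes). Pth1r, the parathyroid hormone receptor of the distal and proximal tubule, fell from 1071 ± 109.2 to 599.8 ± 99.5 CPM (SD, n = 5), -0.84 on the log2 scale (edgeR adjusted p = 3.8e-05). Hpn, the protease hepsin that releases uromodulin and that proximal tubule cells also make, fell from 783.5 ± 61.0 to 514 ± 70.2 CPM, -0.61 on the log2 scale (edgeR adjusted p = 1.3e-04). Slc41a3, a magnesium transporter, rose from 3.69 ± 0.239 to 5.77 ± 0.489 CPM, 0.64 on the log2 scale (edgeR adjusted p = 0.0012). In each of the 3 every oxaliplatin mouse lay on 1 side of every vehicle mouse. This held for 10 of the 53 list genes and for 3995 of the 19293 tested kidney genes. Hpn was no longer called with library size alone, with at least 10 counts in every library, or without vehicle mouse 5, oxaliplatin mouse 4 or oxaliplatin mouse 5, and none of the 3 was called when tested against 1.5-fold or beyond 2-fold. Without oxaliplatin mouse 4 the number called was 5, Casr and Ptger3 among them, and with library size alone it was 6, with Kcnj10 also among them.

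At an adjusted p under 0.05 alone, 16 of the 53 passed (30.2%, against 29.4% of all genes), 9 higher and 7 lower, while 14.4% of all genes were higher and 15.0% were lower. With library size alone 27 of the 53 passed, 22 higher and 5 lower, against 32.2% of all genes. The genes beyond the 3 above are named here after their values were seen. Of the 10 other thick ascending limb genes tested, 3 rose, Casr (0.55) and Ptger3 (0.54) among them, and Hpn and Cldn10 (-0.34) fell, with a list median of 0.13. Casr, the calcium-sensing receptor, went from 96.0 ± 5.80 to 140 ± 16.7 CPM (SD, n = 5, edgeR adjusted p = 9.2e-05). Of the 12 genes that control NCC, Kcnj10 (0.49), Klhl3 (0.26) and Stk39 (0.22) rose and Cul3 (-0.26) fell, with a median of 0.12. Kcnj10, a potassium channel at the blood side of distal convoluted tubule cells, went from 70.0 ± 3.50 to 98.5 ± 7.69 CPM (edgeR adjusted p = 5.2e-05). Klhl3 and Cul3 form the ligase that marks WNK kinases for breakdown, and they moved in opposite directions. With library size alone Cul3 (-0.12, edgeR adjusted p = 0.25) and Cldn10 (-0.21, adjusted p = 0.098) no longer passed.

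Among 10 genes of calcium reabsorption, Atp2b4 (0.42), a calcium pump, rose and Pth1r and Vdr (-0.31), the vitamin D receptor, fell, with a median of -0.13. Trpv5, the calcium channel of the late distal tubule, was at 17.4 ± 2.47 CPM with vehicle and 15.8 ± 2.07 CPM with oxaliplatin (edgeR adjusted p = 0.36). Of 12 genes of magnesium handling tested, Slc41a3 rose and Fxyd2 (-0.41) and Pcbd1 (-0.36) fell, with a median of -0.01. Fxyd2 is a regulator of the sodium pump and went from 2266 ± 239.4 to 1706 ± 290.9 CPM (edgeR adjusted p = 0.010). Of 9 transcription factors of the distal nephron, Esrrb (0.35, edgeR adjusted p = 0.0039) rose, and the median was 0.13. The medians stand beside 0.02 for all tested genes.

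**Figure D4:**
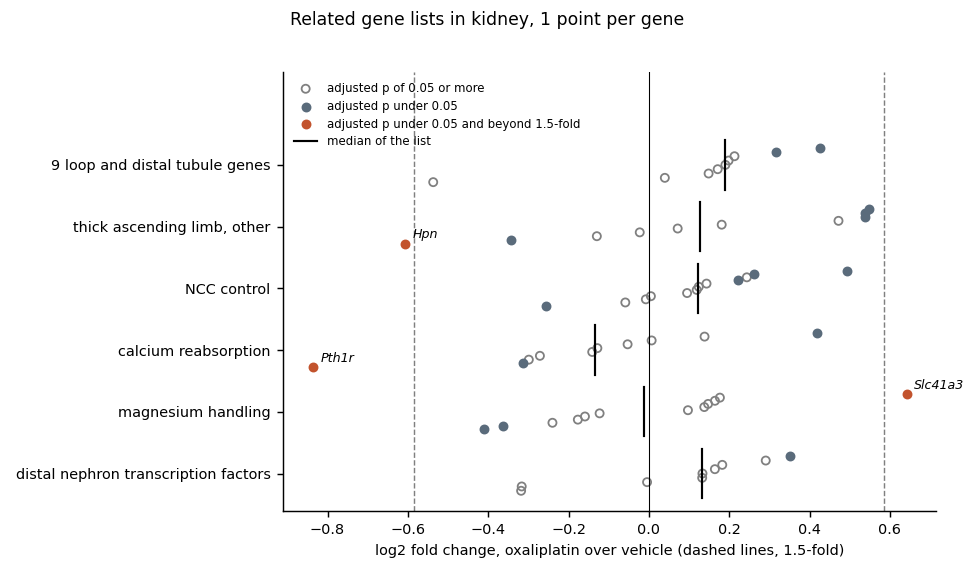
Log2 fold change of oxaliplatin over vehicle in kidney (horizontal axis) for the 9 genes and the tested genes of 5 related lists, 1 point per gene. Open points had an edgeR adjusted p of 0.05 or more, grey points less, and orange points were also beyond 1.5-fold (dashed lines), with the list median as a black line. Pth1r and Hpn lie beyond the line on the lower side and Slc41a3 on the upper side, and the 9 genes lie between the lines.

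Markers of other kidney cells differed between the same libraries, in which 11.5% of all tested genes were called. Of 10 proximal tubule markers 5 were called lower and 0 higher, with a summed level of 24550 to 29310 CPM with vehicle and 14180 to 20510 CPM with oxaliplatin. At an edgeR adjusted p under 0.05 with no fold limit, 6 of these 10 were lower and 2 higher. Podocyte markers were called higher for 4 of 5 (296.2 to 301.2 against 435 to 529 CPM summed) and fibroblast and pericyte markers for 4 of 4 (98.7 to 110.3 against 225 to 285 CPM). For endothelium 2 of 5 were called, both higher (218 to 233 against 250 to 362 CPM), for intercalated cells 1 of 6, higher (310.2 to 347 against 371 to 433 CPM), for thin limb 1 of 5, higher (1168 to 1395 against 1250 to 1451 CPM), and for collecting duct principal cells 0 of 5 (470 to 610.3 against 598 to 786 CPM). Of 5 immune markers tested 1 was higher and 1 lower (25.6 to 31.6 against 21.6 to 35.7 CPM), of 3 tubular injury genes 1 was higher (6.48 to 10.04 against 8.96 to 18.3 CPM) and of 5 red cell genes none (257 to 425 against 47.5 to 705 CPM). At an edgeR adjusted p under 0.05 with no fold limit, 2 of 5 principal cell markers were higher and 0 lower. All 5 had a log2 fold change above 0, with a median of 0.29. By the same count 3 of 5 endothelium, 2 of 6 intercalated cell and 2 of 5 thin limb markers were higher and 0 lower. Of all tested genes 14.4% were higher at this level. None of the markers above was at 0 in every library. Their part in the values of the 9 genes was not tested.

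In bone marrow 5221 of 22363 genes were called, 23.3%. The marrow libraries held 30660153 to 41140527 counts each. Most of the 9 genes were barely detected there, and 3 had enough counts to be tested, Slc12a3, Pvalb and Egf. Cldn16 had 0 counts in all 10 libraries, which allows up to 0.0668 to 0.0975 CPM per library at 3 counts, a floor that covers counting error only. Umod had at most 4 counts in a library, Calb1 at most 2, Slc12a1 at most 7, Kcnj1 3 to 6 and Trpm6 4 to 17.

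Slc12a3 fell in marrow. It had 10.2, 10.8, 6.37, 8.10 and 7.67 CPM in the vehicle mice and 1.12, 0.972, 1.40, 1.65 and 1.32 CPM in the oxaliplatin mice, from 202 to 371 and 31 to 74 counts. Every oxaliplatin mouse was far below every vehicle mouse. The means were 8.63 ± 1.84 and 1.29 ± 0.259 CPM (SD, n = 5), a log2 difference of -2.73 (standard error 0.21, edgeR adjusted p = 1.1e-06), and it stayed between -2.83 and -2.64 with single mice left out. The log2 fold change in kidney minus that in marrow was 2.85 (standard error 0.20, edgeR test of the tissue by treatment interaction over 24321 genes, adjusted p = 1.7e-09). Whether the kidneys and marrows came from the same mice is not stated, and this test took the 20 libraries as independent. This test also fitted and scaled both tissues together, so its values differ somewhat from a subtraction of the separate fits. Red cell genes fell in the same marrow libraries, by -2.84 to -2.38 on the log2 scale. Alas2, which encodes the first enzyme of heme synthesis in red cells, was at 876 to 1617 CPM with vehicle and 99.2 to 264 CPM with oxaliplatin (log2 fold change -2.84, edgeR adjusted p = 3.7e-06). All 5 red cell markers were called lower, while 23.3% of all tested marrow genes were called in either direction. Among the oxaliplatin mice the 2 genes ran in opposite order. Slc12a3 was highest in mouse 4 (1.65 CPM), where Alas2 was lowest (99.2 CPM). It was lowest in mouse 2 (0.972 CPM), where Alas2 was highest (264 CPM). The part of red cell genes in the fall of Slc12a3 was not tested.

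Pvalb moved the other way in marrow. Its counts were 8, 0, 79, 8 and 86 in the vehicle mice and 358, 259, 1730, 55 and 438 in the oxaliplatin mice. In CPM these were 0.253, 0, 2.49, 0.228 and 2.79 against 10.3, 8.12, 40.3, 1.22 and 11.8, so that oxaliplatin mouse 4 overlapped the vehicle mice and oxaliplatin mouse 3 stood far above the others. The log2 difference was 3.65 (standard error 1.10, edgeR adjusted p = 0.027), and it no longer passed without oxaliplatin mouse 3 (2.78, adjusted p = 0.095), without vehicle mouse 1 (3.40, adjusted p = 0.051) or with no filter beyond 1 count (3.66, adjusted p = 0.084). In the joint fit of both tissues, the log2 fold change in kidney minus that in marrow was -4.27 (standard error 1.09, edgeR interaction adjusted p = 0.0059). The summed level of 6 skeletal muscle genes, a list made after the values were seen, was 12.2 to 108.9 CPM with vehicle and 48.4 to 829.6 CPM with oxaliplatin. It was highest in oxaliplatin mouse 3, the mouse with most Pvalb, and among oxaliplatin mice lowest in mouse 4, the one with least Pvalb. Of the 6 muscle genes 5 were called higher, beside 23.3% of all tested marrow genes called in either direction. Their part in the rise of Pvalb was not tested.

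Egf in marrow was similar between the groups, at 2.08 to 3.42 CPM with vehicle and 1.79 to 3.45 CPM with oxaliplatin (log2 fold change 0.10, edgeR adjusted p = 0.79). In the joint fit of both tissues, the log2 fold change in kidney minus that in marrow was -0.01 (standard error 0.20, edgeR interaction adjusted p = 0.99). The separate fits gave 0.15 in kidney and 0.10 in marrow.

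**Figure D5:**
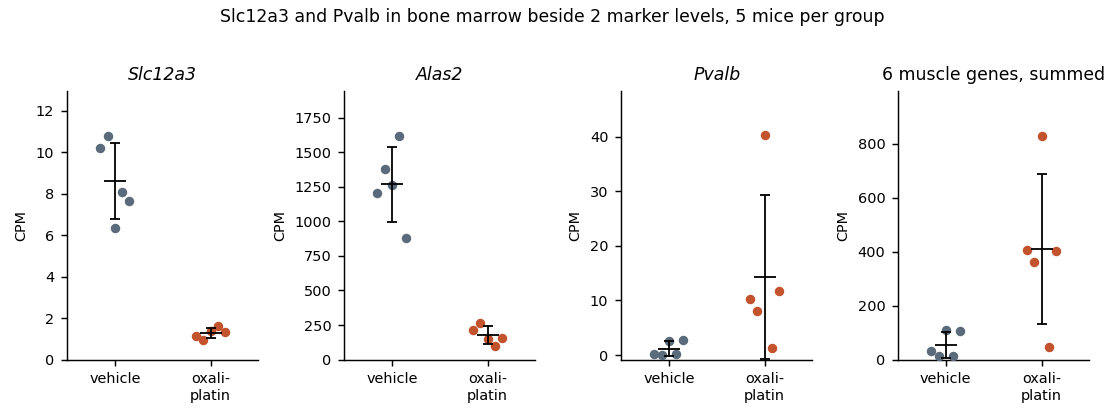
Levels in bone marrow in CPM (vertical axes) of Slc12a3, the red cell gene Alas2, Pvalb, and 6 skeletal muscle genes summed. Points are single mice, 5 with vehicle (grey) and 5 with oxaliplatin (orange), and bars give the mean and SD. Slc12a3 and Alas2 are lower in all oxaliplatin mice, while Pvalb and the muscle sum are both highest in 1 oxaliplatin mouse (40.3 and 829.6 CPM).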

How the data were processed

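RNA was sequenced in 20 libraries of mouse kidney and bone marrow. For each tissue the authors deposited a table of raw read counts by gene, and the paper names STAR for alignment and Partek Flow for later steps. The submitters' processing notes name STAR, Subread featureCounts and Salmon. The kit is given as SMARTer in the methods and as RiboErase with random hexamers in the labels. Each table had 55774 lines. Repeats of an identifier with the same counts (287 lines) and 1 line lacking a value were dropped. Groups and replicate numbers came from sample titles. No 2 libraries of a group agreed within counting noise (chi-square per degree of freedom at least 7.51).

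Counts were filtered with filterByExpr (minimum count 10), scaled by TMM and tested in each tissue in edgeR 4.0.16 by its quasi-likelihood test, robust setting, with treatment as the only term. The tissue by treatment interaction was fitted over all 20 libraries with a joint filter and joint TMM scaling. Log2 CPM for ratios and correlations had a prior count of 2. Positions came from GENCODE M21 (GRCm38) and promoter windows from RefSeq (GRCm38.p6). The genes and lists were chosen with earlier results of these data known. Outside the 9 genes, those named are list genes called, the 5 with the highest median r among genes whose mean log2 CPM was 1 or more, and list genes said to be chosen after their values were seen. Values of 1 list gene are not reported here. Alternatives included DESeq2 1.42.0. On simulated kidney counts for 18944 genes, edgeR called 76.3% of 2-fold and 98.9% of 4-fold changes, with 5 false calls. No change below 2-fold was simulated, so these shares do not cover the kidney changes of the 9 genes. R was version 4.3.3 and limma 3.58.1. Figures used Python 3.11.15 and matplotlib 3.10.9.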

Additional observations from a re-analysis of the deposited data

Results flagged for a closer look

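The effect of oxaliplatin on Slc12a3 differed between kidney and bone marrow by 2.85 on the log2 scale (kidney minus marrow), and that on Pvalb by -4.27. Both values are from a test of the difference itself in a joint fit of the 2 tissues. Egf, the other gene tested in both tissues, did not pass this test.

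The ratio of Slc12a3 to Slc12a1 in vehicle kidneys had 1 mouse apart from the others. Vehicle mouse 5 was at 0.17 and the other 4 at 0.44 to 0.55 on the log2 scale, and its gap to the next mouse was 0.712 of the whole range, just over the 0.71 at which a sample of 5 is taken as apart. In this mouse Slc12a3 was the lowest of the vehicle mice, at 1177 CPM. Such a gap was looked for in 40 groups of 5, and chance gives about 1 in 20. Without this mouse the difference of the ratio between groups went from -0.13 to -0.19 (exact permutation adjusted p = 0.27 with it and 0.021 without it). The mouse was picked by its value of this same ratio, so the p without it is not a test of the difference.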

How the results depend on the processing

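Slc12a1 and Cldn16 kept their direction and an adjusted p under 0.05 under all 17 alternatives run for their fold change. Over the fold changes of all 9 genes, 87 of 90 values with a mouse left out and 56 of 63 under other alternatives kept direction and side of the threshold. Those that gained an adjusted p under 0.05 were Umod, Egf and Slc12a3 with library size alone, Umod with no filter beyond 1 count (0.20, adjusted p = 0.045) and with a covariate of Y-linked genes (0.22, adjusted p = 0.031), and Pvalb with DESeq2 (-0.54, adjusted p = 0.028), with the replicate block, and without vehicle mouse 1 or oxaliplatin mouse 2. Kcnj1 ranged from -0.00144 (without vehicle mouse 2) to 0.076 with single mice left out. The cause was not tested.

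At an adjusted p under 0.05, 5 of the 9 genes passed with library size alone and 0 when tested against a change of 1.5-fold, and with no fold threshold 2 counted as called. Leaving out mice gave 0 to 1 of the 9 genes called and 2 to 5 list genes. The list genes called numbered 6 with library size alone, 0 when tested against 1.5-fold or beyond 2-fold, and 16 with no fold threshold. Over all kidney genes the calls were 454 when tested against 1.5-fold, 941 beyond 2-fold and 5679 with no fold threshold.

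Replicate numbers belong to different mice and same-numbered mice did not deviate together (correlations of -0.15 to 0.075). With the replicate block 3 of the 9 genes had an adjusted p under 0.05, with Pvalb added (-0.58, adjusted p = 0.019), and 2017 kidney genes were called.

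With single mice left out, the ratios to Slc12a1 ranged from -0.31 to -0.23 for Kcnj1, from -0.19 to -0.15 for Egf, and from -0.19 to -0.10 for Slc12a3. Those to Slc12a3 ranged from -0.90 to -0.65 for Pvalb, from -0.11 to 0.03 for Trpm6 and from -0.0554 to 0.12 for Calb1, so the last 2 changed sign. In bone marrow, Slc12a3 and Egf kept direction and side throughout, and Pvalb had 3.66 (adjusted p = 0.084) with no filter beyond 1 count and 2.78 to 4.29 with single mice left out. Alternatives in marrow beyond the filter were added after the data were seen. Cldn16, Pvalb and Trpm6 rest on the fewest kidney counts, and 6 of the 9 genes are too low in marrow to compare.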
